A study of Mus musculus with 2 samples.

Results

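Engulfment and actin remodelling genes were followed in 2 sorted populations of microglia, the resident macrophages of nervous tissue, from mouse retina at postnatal day 5. The set held 48 genes, chosen by symbol from a list, and all 48 were found among the 13549 genes of the count table. They were divided by role into 15 genes for Rac, related small GTPases and their regulators, 14 genes for the Arp2/3 complex and its activators, and 19 genes for actin and actin-binding proteins. The mice carried CD11c-Cre-gfp and Rosa-TDTom, so that cells with an active CD11c promoter (CD11c is the integrin chain made from *Itgax*) produce a Cre-GFP, and cells in which Cre has acted keep a red reporter. The Cd11c-active library came from 4041 cells with both colours (GFP+TdTom+) and the Cd11c-lineage library from 5441 cells with the red reporter alone (GFP-TdTom+), both sorted from the same 8 retinas, labelled as 4 female and 4 male. Both groups carried the Cre and the reporter, and no group without them or without past promoter use was compared. The labels do not say whether the red cells had used the promoter as microglia or earlier in their lineage. Each group was 1 pooled library, so no comparison below has a replicate check and no p-value is given.

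When a microglial cell takes up an apoptotic neuron, receptors that bind the dying cell activate the small GTPase Rac. They act through exchange factors such as DOCK proteins with their ELMO partners. Rac and Cdc42 then switch on the WAVE and WASP proteins, which stimulate the Arp2/3 complex to grow branched actin filaments around the target. Profilin, cofilin, thymosin and other actin-binding proteins supply and recycle actin monomers, while bundling proteins, integrin adaptors and myosins shape and close the phagocytic cup.

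Transcripts of this machinery took similar shares of both libraries. The 48 genes together took 464778 of 12943998 Cd11c-active reads, or 3.59% (exact 95% binomial interval 3.58 to 3.60), and 498967 of 13402625 Cd11c-lineage reads, or 3.72% (3.71 to 3.73). After scaling for library composition, the log2 ratio of Cd11c-active over Cd11c-lineage had a median of 0.09 over the 48 genes, against 0.01 over the 13037 genes with at least 20 reads in the 2 libraries together. Ratios lay above 0 for 25 members and below 0 for 23. This scaling raised every ratio by 0.14 against plain library totals, and under library totals the median of the members was -0.04 and that of all genes -0.13.

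All 48 members passed the minimum of 20 reads. At a threshold of 2-fold, 1 member was higher in Cd11c-active, where 23.3% of all genes passed, and 1 was lower, where 21.6% did. Both were among the most sparsely counted genes of the set. *Gulp1*, an adaptor for engulfment receptors, had 36 reads in the Cd11c-active library against 0, which puts it at least 13.7-fold higher against a floor of 3 reads in Cd11c-lineage, with its own 36 reads taken as exact. The lower end of its counting interval is 10.5-fold. *Vav3*, an exchange factor for Rac and related GTPases, had 18 against 81 reads, for a log2 ratio of -1.95 (-2.81 to -1.23, an exact 95% interval for counting error, as in all parentheses after ratios below). Among genes with 20 reads or more but under 200, 85.6% passed 2-fold in either direction, and 63.0% had 0 reads in 1 of the libraries, so a ratio of this size was usual at this depth.

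The other 46 members had at least 1000 reads, and 0 of them passed 2-fold in either direction, where 5.43% of the 4619 genes with that many reads passed higher in Cd11c-active and 4.14% passed lower. Most members are abundant, with a median of 10343 reads against 483 over all genes, and abundant genes had narrower ratios. The count was therefore read within ranges of depth. With 1000 reads or more but under 5000, 0 of 12 members passed 2-fold, against 11.6% of genes. With at least 5000 reads, 0 of 34 members passed, against 2.1%. At 1.5-fold the 12 members held 3 that were higher in Cd11c-active, *Capg*, *Brk1* and *Rhog*, against 16.8% of genes, and 0 that were lower, against 17.2%. The 34 abundant members held 0 higher at 1.5-fold, against 6.79%, and 1 lower, *Dock10*, against 5.0%. None of these 4 members passed 1.5-fold once the dependence of the ratio on transcript length and base composition was taken out (trend removal). Their ratios were then 0.58 (*Capg*), 0.55 (*Brk1*), 0.44 (*Rhog*) and -0.36 (*Dock10*), against a threshold of 0.58496 on the log2 scale, and 0 members with at least 1000 reads were higher, where 12.6% of 4612 genes were, and 1, *Evl* at -0.61, was lower, where 13.6% were.

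**Figure D1:**
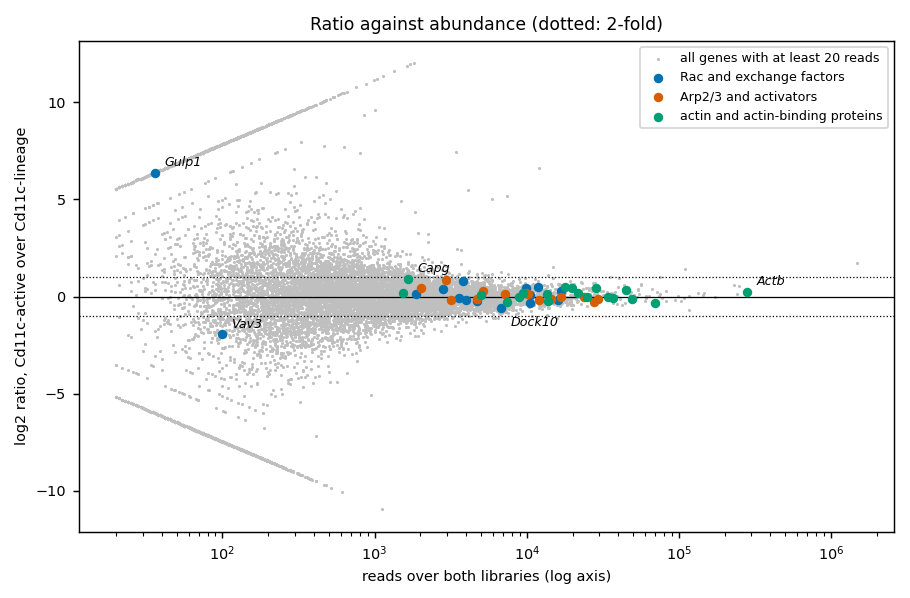
Log2 ratio of Cd11c-active over Cd11c-lineage (vertical axis) against reads over both libraries (horizontal log axis) for the 13037 genes with at least 20 reads (grey) and the 48 members (coloured by class). Dotted lines mark 2-fold; *Gulp1* and *Vav3* are the members beyond them, and the other 46 sit in the narrow part of the distribution at 1000 reads or more.

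For each gene the spread of similarly counted genes was taken as the middle 95% of the log2 ratios of the 500 genes nearest in abundance. For the most abundant members these are the genes with the most reads. This spread ran from -0.62 to 0.80 for *Actb*, from -0.80 to 0.84 for *Dock10* and from -1.31 to 1.40 for *Capg*. It holds technical and true differences of those genes together. All 48 members lay inside their own spread. Counting intervals, which cover reads only, were far narrower and excluded 0 for 25 members above and 17 below. A ratio can therefore differ from 0 by more than counting error and still be ordinary for these 2 libraries. The share of all genes whose counting interval excludes 0 is not given here. The 25 and 17 are therefore no result about the members as a set.

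Of the 4 DOCK exchange factors, 3 had ratios below 0. *Dock10*, an exchange factor for Cdc42 and Rac, had 2505 reads in the Cd11c-active library and 4319 in the other, for a log2 ratio of -0.60 (-0.67 to -0.53, the counting interval) at percentile 6.6 of its similarly counted genes. *Dock8*, which activates Cdc42 and is needed for leukocyte migration, had 4377 and 6166 reads and a ratio of -0.31 (-0.36 to -0.25). *Dock2*, the Rac exchange factor of blood cells, had 7063 and 9049 reads and a ratio of -0.17 (-0.22 to -0.13). These 3 ratios stayed below 0 under every scaling tried. After trend removal *Dock10* had -0.36, *Dock8* -0.22 and *Dock2* -0.04. *Dock1*, the partner of ELMO proteins in the engulfment of apoptotic cells, had 914 and 947 reads and a ratio of 0.14 (0.0027 to 0.27), which was -0.0009 under library totals and 0.28 after trend removal. Per length of transcript, *Dock2* stood above *Dock1* in both libraries, 8.21 times in Cd11c-active and 10.1 times in Cd11c-lineage.

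The 2 ELMO genes, whose products hold DOCK proteins at the membrane, had ratios of opposite sign. *Elmo1* had 1727 and 2260 reads and a ratio of -0.20 (-0.29 to -0.11), and *Elmo2* had 1510 and 1314 reads and a ratio of 0.39 (0.28 to 0.49). After trend removal these were -0.05 and 0.36. Per length of transcript the level of *Elmo1* was 0.983 times that of *Elmo2* in Cd11c-active and 1.48 times in Cd11c-lineage. *Vav2*, an exchange factor for Rac and related GTPases activated by phosphorylation, had 5395 and 4525 reads and a ratio of 0.44 (0.38 to 0.50), and 0.33 after trend removal. The related *Vav3* was present at 0.0035 times the per-length level of *Vav2* in Cd11c-active and 0.019 times in Cd11c-lineage.

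Of the 5 GTPases, 4 had ratios above 0. *Rhog*, which recruits ELMO and DOCK proteins upstream of Rac, had 2288 and 1516 reads and a ratio of 0.78 (0.69 to 0.87). It lay at percentile 95 of similarly counted genes and had 0.44 after trend removal. *Rac1*, the broadly expressed Rac, had 6512 and 5263 reads and a ratio of 0.49 (0.44 to 0.55). It shares 2309 exon bases with *Daglb* on the opposite strand, which had 4340 and 4131 reads. The use of strand in counting is not given, so reads from the shared bases cannot be told apart here. *Rhoa*, which drives contractility, had 8685 and 8085 reads and a ratio of 0.29 (0.25 to 0.33). *Cdc42*, which acts on WASP, had 5068 and 5432 reads and a ratio of 0.09 (0.03 to 0.14), which was -0.05 under library totals. *Rac2*, the Rac of blood cells, was on the other side with 2025 and 2663 reads and a ratio of -0.21 (-0.29 to -0.12). The per-length level of *Rac2* was 0.426 times that of *Rac1* in Cd11c-active and 0.693 times in Cd11c-lineage. *Arhgdib*, an inhibitor that keeps Rac and related GTPases in the cytosol of blood cells, had 1627 and 1957 reads and a ratio of -0.08 (-0.18 to 0.02), so its counting interval included 0, while after trend removal it had -0.34. Over the class of 15 the median ratio was 0.09, and the summed reads, 49750 and 53577, gave 0.08 (0.06 to 0.10) and 0.039 without *Rhoa*. Under library totals the median and the sum were -0.050 and -0.057.

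**Figure D2:**
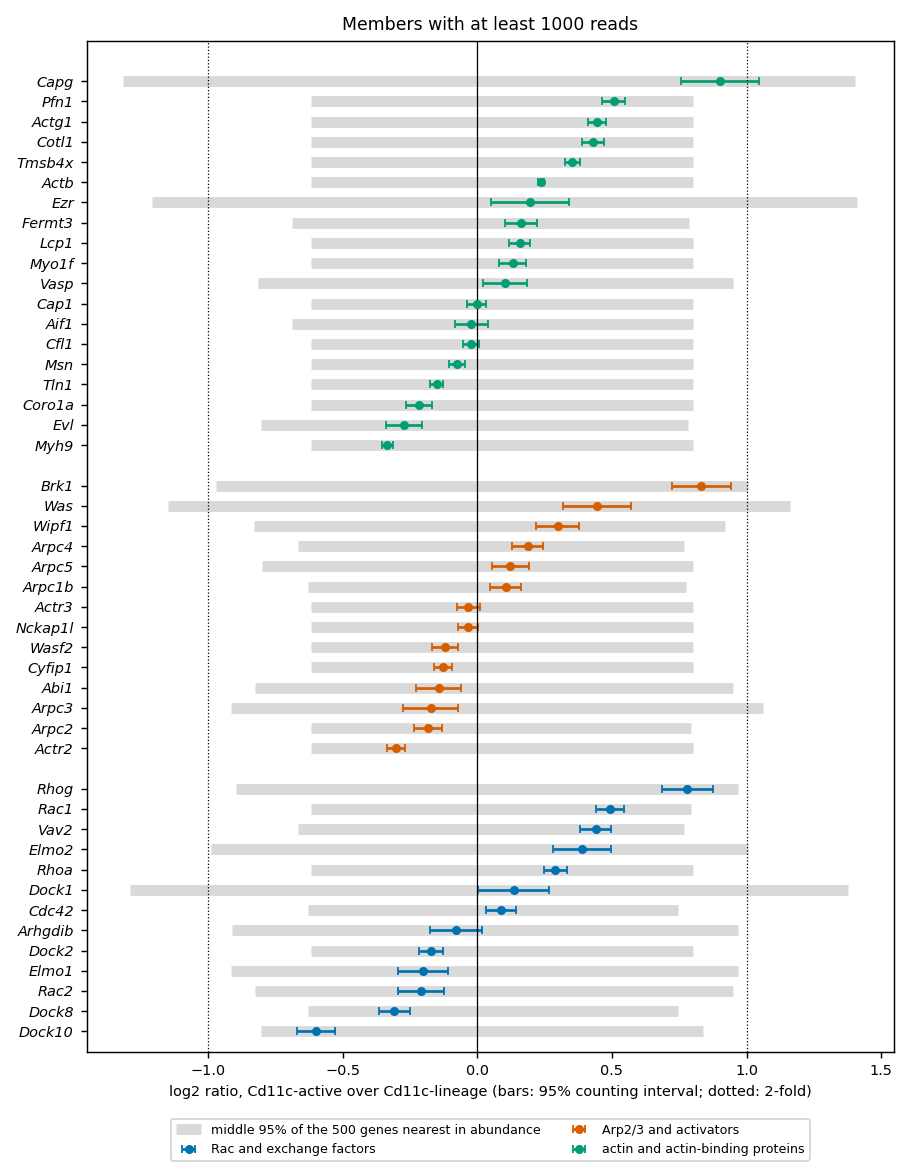
Log2 ratio of Cd11c-active over Cd11c-lineage (horizontal axis) for the 46 members with at least 1000 reads, in 3 classes, with 95% counting intervals as bars and the middle 95% of the 500 genes nearest in abundance as grey bands. Every point lies inside its band and between the dotted lines at 2-fold, from *Dock10* at -0.60 to *Capg* at 0.90.

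The Arp2/3 complex, which nucleates a new actin filament on the side of an existing one, was represented by 7 subunit genes with ratios between -0.30 and 0.19. The actin-related subunit *Actr2* had 11596 and 16265 reads and a ratio of -0.30 (-0.34 to -0.27). Its partner *Actr3* had 7761 and 9038 reads and a ratio of -0.03 (-0.08 to 0.01). The scaffold subunit *Arpc2* had 5232 and 6762 reads and a ratio of -0.18 (-0.24 to -0.13), close to *Arpc3* with 1400 and 1797 reads and -0.17 (-0.28 to -0.07). Trend removal moved *Arpc2* to -0.35, *Arpc3* to -0.52, *Actr2* to -0.15 and *Actr3* to -0.01. Above 0 were *Arpc4* with 4917 reads in each library and 0.19 (0.13 to 0.24), *Arpc5* with 3500 and 3658 and 0.12 (0.06 to 0.19), and *Arpc1b* with 4949 and 5237 and 0.10 (0.05 to 0.16), and the last 2 were -0.01 and -0.03 under library totals. After trend removal these 3 had 0.05, 0.04 and 0.04. *Arpc4* shares 283 exon bases with *Ttll3* on the same strand (147 and 347 reads), and *Arpc1b* shares 931 with *Pdap1* on the opposite strand (253 and 551 reads). Subunits of this single complex therefore differed from one another by more than counting error. Added together they held 39355 and 47674 reads, for a ratio of -0.09 (-0.11 to -0.07). Per length of transcript the subunits ranged from 126 CPM per kb (*Arpc3*) to 294 (*Arpc2*) in Cd11c-active and from 120 (*Arpc1b*) to 334 (*Arpc2*) in Cd11c-lineage, where CPM are reads scaled to a common library size.

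The WAVE regulatory complex links active Rac to Arp2/3, and 4 of the 5 members of the set that belong to it had ratios just under 0. *Cyfip1*, the subunit that binds Rac, had 13070 and 16266 reads and a ratio of -0.13 (-0.16 to -0.10), which was 0.06 after trend removal. It shares 1316 exon bases with *Nipa2* on the opposite strand (1131 and 1081 reads). *Wasf2*, the WAVE protein that contacts Arp2/3, had 6482 and 8019 reads and -0.12 (-0.17 to -0.07). The scaffold subunit *Nckap1l*, found in blood cells, had 11057 and 12887 reads and -0.03 (-0.07 to 0.0024), which was 0.05 after trend removal, and the adaptor *Abi1* had 2076 and 2610 reads and -0.14 (-0.23 to -0.06), which was -0.02 after trend removal. *Brk1*, the smallest subunit, stood apart with 1788 and 1143 reads and a ratio of 0.83 (0.72 to 0.94), at percentile 95 of similarly counted genes and 0.55 after trend removal. *Was*, the WASP of blood cells that Cdc42 activates, had 1101 and 921 reads and 0.44 (0.32 to 0.57), and 0.23 after trend removal. *Wipf1*, which binds and stabilises WASP, had 2668 and 2468 reads and 0.30 (0.22 to 0.38). The class of 14 had a median ratio of -0.03, which was -0.17 under library totals and 0.04 after trend removal.

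In the third class *Actb*, cytoplasmic beta-actin, had 143318 and 138336 reads with a ratio of 0.24 (0.23 to 0.25) and was the member with the highest per-length level, 6046 and 5128 CPM per kb. *Actg1*, gamma-actin, had 15595 and 13030 reads and a ratio of 0.45 (0.41 to 0.48), at 0.107 times the per-length level of *Actb* in Cd11c-active and 0.0926 times in Cd11c-lineage. The summed reads of the class, 337431 and 353402, gave a ratio of 0.12 (0.11 to 0.13), which was 0.04 (0.03 to 0.05) without *Actb*. Under library totals these were -0.016 and -0.098. Both actin genes kept ratios above 0 under every scaling tried, down to 0.10 and 0.28.

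Promoters of members were compared because actin genes are classical targets of serum response factor, which binds the CArG box. The second motif was GAGGAAGT, a sequence bound by PU.1, the transcription factor that sustains microglia. Only that exact sequence was searched for PU.1, so other PU.1 sites were not counted. RefSeq promoters of build GRCm38.p6, 250 bases before to 50 after each start site, were matched by symbol for 42 of the 48 members. Members without a matched promoter were not searched and are not named here. No statement can therefore be made on a given member without a match, such as *Actb*. A CArG box was found in 2 of the 42, *Actg1* and *Arpc4*, against 1.81% of 27025 genes with a promoter and 1.63% of 32851 promoters. GAGGAAGT on either strand was found in 3 of the 42 (*Rhog*, *Arpc1b* and *Elmo1*), against 3.69% of genes and 3.20% of promoters, and the 2 motifs overlapped in no window. The 5 members with a match had ratios on both sides of 0, from -0.20 for *Elmo1* to 0.78 for *Rhog*. The 3 matches that lie before the start site are shown, with the motif in capitals, and the other 2 lie after it. The *Actg1* window is chr11:120348551-120348610 on the minus strand with the box starting at -90, the *Arpc4* window is chr6:113377863-113377897 on the plus strand at -250, and the *Rhog* window is chr7:102250119-102250158 on the minus strand at -15, in reverse orientation.
Actg1: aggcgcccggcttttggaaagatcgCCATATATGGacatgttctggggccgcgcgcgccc
Arpc4: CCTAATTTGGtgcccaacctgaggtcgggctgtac
Rhog: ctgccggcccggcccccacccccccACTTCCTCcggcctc

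The monomer-binding proteins, which set how much actin is free to polymerise, were uneven. *Pfn1*, profilin, had 9837 and 7882 reads and a ratio of 0.51 (0.46 to 0.55). *Tmsb4x*, the thymosin that sequesters monomers, had 23753 and 21160 reads and a ratio of 0.35 (0.33 to 0.38), with the second highest per-length level of the set at 2227 and 1743 CPM per kb. After trend removal these 2 ratios were 0.09 and 0.01. *Cfl1*, cofilin, which severs old filaments, had 15847 and 18321 reads and a ratio of -0.02 (-0.05 to 0.01). *Cap1*, which helps recycle cofilin-bound monomers, had 11580 and 13206 reads and a ratio of -0.0030 (-0.04 to 0.03). The counting intervals of *Cfl1* and *Cap1* included equal levels, and after trend removal they had -0.12 and -0.05.

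Proteins that cap, bundle or coat filaments included the member with the highest ratio among those with at least 1000 reads. *Capg*, a filament-capping protein of macrophages, had 1028 and 626 reads and a ratio of 0.90 (0.76 to 1.05), at percentile 90.6 of similarly counted genes and 0.58 after trend removal. *Cotl1*, which binds filaments and competes with cofilin, had 10679 and 9028 reads and 0.43 (0.39 to 0.47), which was 0.09 after trend removal. *Lcp1*, the leukocyte plastin that bundles filaments, had 10805 and 11031 reads and 0.16 (0.12 to 0.20). *Aif1*, which encodes the microglial marker IBA1 and bundles actin in membrane ruffles, had 4142 and 4787 reads and -0.02 (-0.08 to 0.04). *Coro1a*, the coronin of blood cells, had 5979 and 7908 reads and -0.22 (-0.27 to -0.17), at percentile 23.8. Trend removal moved *Aif1* to -0.39, *Coro1a* to -0.51 and *Lcp1* to 0.23.

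Myosins and the proteins of adhesion and the cell cortex had ratios between -0.33 and 0.20. *Myh9*, the heavy chain of non-muscle myosin II, had 28762 and 41256 reads and a ratio of -0.33 (-0.36 to -0.31), the lowest of the class. *Myo1f*, a membrane-linked myosin of leukocytes, had 6631 and 6891 reads and 0.13 (0.08 to 0.18). *Tln1*, talin, which activates integrins, had 21686 and 27412 reads and -0.15 (-0.18 to -0.13), and its partner *Fermt3*, the kindlin of blood cells, had 4654 and 4732 reads and 0.16 (0.10 to 0.22). Of the proteins linking actin to the membrane, *Msn* (moesin) had 16798 and 20153 reads and -0.08 (-0.11 to -0.05). *Ezr* (ezrin) had 776 and 771 reads and 0.20 (0.05 to 0.34), and per length of transcript it stood at 0.0561 times moesin in Cd11c-active and 0.0465 times in Cd11c-lineage. The filament-elongating relatives *Vasp* and *Evl* had 2439 and 2585 reads with 0.10 (0.02 to 0.18), and 3122 and 4287 reads with -0.27 (-0.34 to -0.20). Signs of *Myo1f*, *Vasp* and *Fermt3* depended on the scaling, with lowest values of -0.01, -0.15 and -0.06. After trend removal *Myh9* had -0.43, *Tln1* -0.25 and *Evl* -0.61, while *Msn* had -0.01 and *Ezr* 0.13. The class of 19 had a median ratio of 0.13, which was -0.0053 under library totals and -0.0062 after trend removal.

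**Figure D3:**
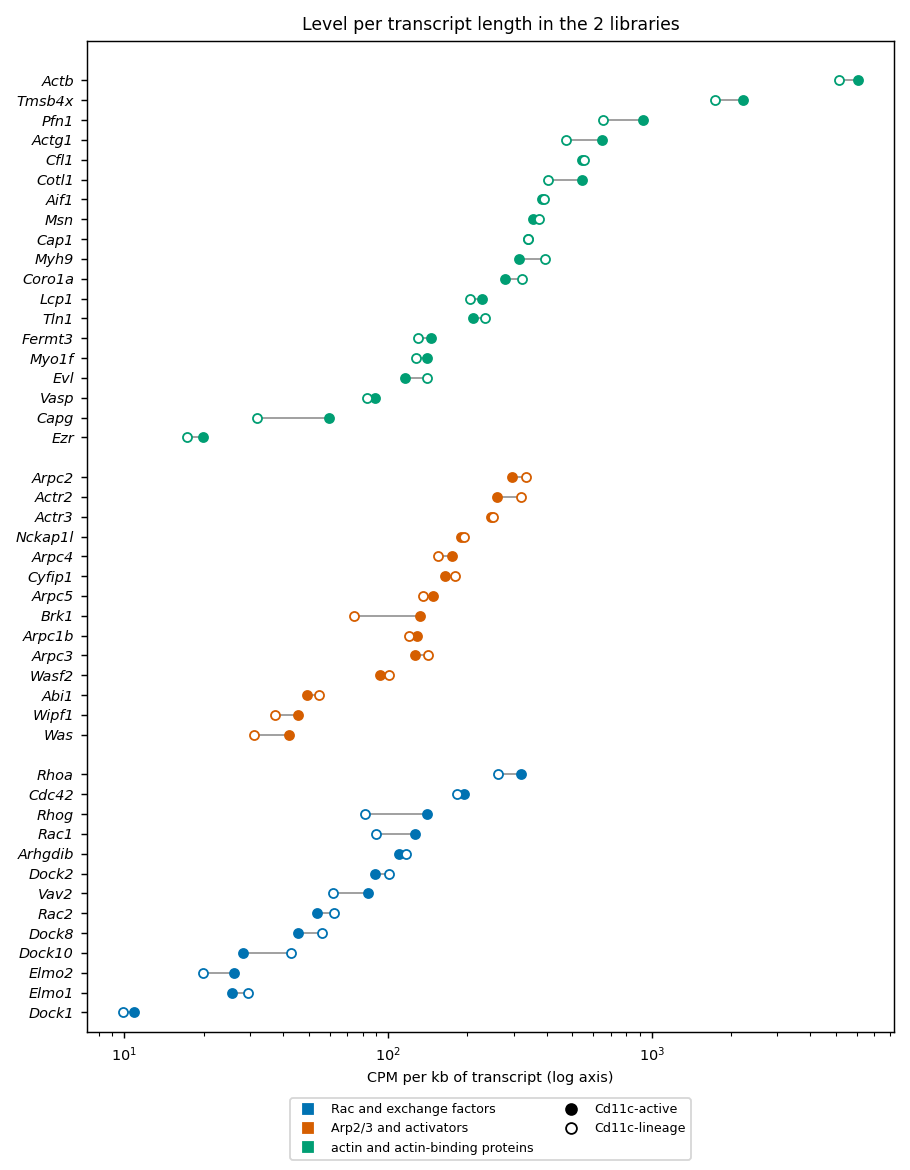
Level of the 46 members with at least 1000 reads as CPM per kb of the longest protein-coding transcript (horizontal log axis) in Cd11c-active (filled) and Cd11c-lineage (open), by class. Differences between genes span far more than differences between libraries: *Actb* reaches 6046 and 5128, and *Dock1* 10.9 and 9.90.

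Transcript length moved with the ratio. Among the 46 members with at least 1000 reads, the log2 ratio had a Pearson r of -0.44 and a Spearman rho of -0.40 with log2 transcript length, and of 0.30 and 0.25 with GC content. Over the 4612 genes with at least 1000 reads and a matched transcript, the values were -0.19 and -0.25 with length and 0.19 and 0.23 with GC content. These are descriptions across genes that share the same 2 libraries, and genes are not independent replicates. The 9 members with transcripts under 1500 bases had a median ratio of 0.35, against 0.35 for the 320 genes of that length, and the 7 members of 6000 bases or more had -0.17, against -0.19 for 1003 genes. Between these ends the 15 members of 1500 to under 3000 bases had 0.12, against 0.09 for 1199 genes, and the 15 of 3000 to under 6000 bases had 0.10, against -0.06 for 2090 genes. These medians of few members were not compared by a test. The part that length plays in the ratios of the small proteins *Pfn1*, *Tmsb4x*, *Brk1* and *Rhog* and of the long DOCK genes was not tested beyond the trend removal. The values of these genes after trend removal are given above.

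**Figure D4:**
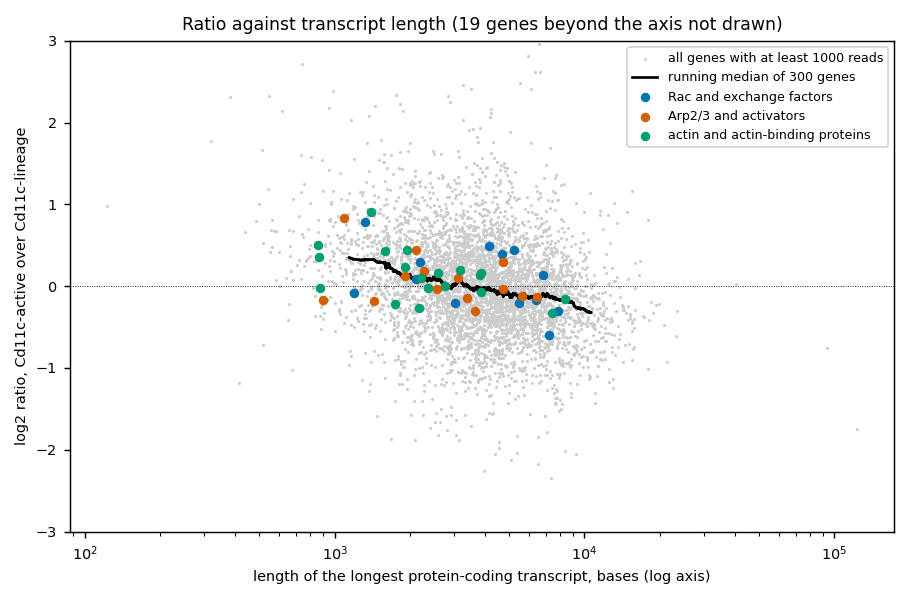
Log2 ratio of Cd11c-active over Cd11c-lineage (vertical axis) against length of the longest protein-coding transcript in bases (horizontal log axis) for genes with at least 1000 reads (grey), with the running median of 300 genes (black) and the members (coloured by class); 19 genes beyond a log2 ratio of 3 are not drawn. The median ratio of the members is 0.35 under 1500 bases, 0.12 and 0.10 in the middle ranges and -0.17 at 6000 bases or more, while that of all genes declines from 0.35 to -0.19.

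The wider pathway was covered by a list of 111 further GTPase regulators, Arp2/3 and WAVE genes and actin-binding genes, of which 102 were measured. Their median log2 ratio was 0.08, with 57 above 0 and 45 below. Of the 79 with at least 1000 reads, 4 passed 2-fold higher in Cd11c-active and 2 passed lower, against the 5.43% and 4.14% of all genes given above. Among the highest were *Myh10*, a second non-muscle myosin heavy chain, with 964 and 528 reads and 1.05 (0.90 to 1.21), and *Actn4*, an actin cross-linker, with 3360 and 1846 reads and 1.05 (0.97 to 1.13). These ratios dropped below the 2-fold threshold, to 0.92 and 0.91, under library totals, while after trend removal they were 1.14 and 0.95. The 3 lowest were the membrane-linked actin binder *Svil* with 302 and 749 reads and -1.12 (-1.32 to -0.93), the Rac exchange factor *Tiam1* with 432 and 1070 reads and -1.12 (-1.29 to -0.96), and the formin *Daam1* with 453 and 971 reads and -0.91 (-1.08 to -0.75). Of the 79 genes 76 lay inside the middle 95% of similarly counted genes. The 3 outside were *Actn4* and 2 named after their values were seen, *Abi3*, a WAVE complex gene, with 2489 and 1389 reads and 1.03 (0.93 to 1.12), and *Arhgdia*, an inhibitor of small GTPases, with 9378 and 5555 reads and 0.94 (0.89 to 0.99). After trend removal *Abi3* had 0.80 and *Arhgdia* 0.61.

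Most members are known to be expressed in many cell types, so markers of other cells are given beside them. All 8 microglial markers were well detected, with summed levels of 19325 and 18055 CPM. The 8 endothelial markers summed to 646 CPM in the Cd11c-active library against 73.7 in the other, where 5 of them, including *Cldn5*, were at 0 reads, and 5 measured mural cell markers summed to 62.8 and 0 CPM. The 8 measured retinal neuron markers summed to 124 and 221 CPM. The 5 measured markers of Muller glia and astrocytes summed to 2279 and 2431 CPM, of which *Glul* alone had 2249 and 2369. The 4 measured monocyte and neutrophil markers summed to 2.83 and 17.0 CPM, and the 1 measured erythroid marker had 0 and 2.21 CPM. Of 4 measured border macrophage markers 3 were at 0 reads in Cd11c-active, and the sums were 21.2 and 128 CPM. *Itgax*, whose promoter directed the sort, had 2409 and 1698 reads and a log2 ratio of 0.69 (0.60 to 0.78). In bulk samples fewer cells of a type and less RNA per cell cannot be told apart. The part of these other cells in the ratios of the members was not tested.

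Members known to be largely restricted to the blood lineage were set apart after their values were seen. These were *Rac2*, *Arhgdib*, *Coro1a*, *Nckap1l*, *Was*, *Dock2*, *Dock8*, *Fermt3*, *Myo1f*, *Lcp1* and *Aif1*. The 11 genes had a median ratio of -0.03, with 4 above 0 and 7 below, and lay between -0.31 and 0.44. The other 35 members with at least 1000 reads had a median of 0.10, with 20 above 0 and 15 below, and lay between -0.60 and 0.90. Because the list was drawn up with the ratios known, the difference between these medians cannot be read as a trait of blood-lineage genes.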

How the data were processed

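The deposited table holds, per its header, the authors' unnormalized read counts of each gene in both libraries. The submitters' processing notes name cutadapt 3.5, STAR 2.7.9a, featureCounts 1.6.3, edgeR 4.0.16 and build GRCm39, without roles. The use of strand is not given in the sources used here. The deposited log2 fold change differed from the log2 ratio on library totals by at most 0.00033 among members with at least 1000 reads, and no other use was made of the deposited log2 columns. No column of unmapped samples was present (0).

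Scaling for composition used the TMM method (edgeR 4.0.16 under R 4.3.3), with factors of 0.954 and 1.05 for Cd11c-active and Cd11c-lineage. Ratios used reads plus 0.5, with exact Clopper-Pearson 95% intervals. Reads carry no molecular identifiers, so intervals and the floor of 3 reads (0.243 and 0.214 CPM) cover counting error only. With 1 library per group the tests of edgeR and DESeq2 have no residual degrees of freedom, so genes were counted at 2-fold, without a test, where both libraries together gave 20 reads or more.

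Length and GC content came from the longest protein-coding transcript in GENCODE M21 (GRCm38), which matched 13499 genes (99.6%) and all 48 members. The trend with both was a quadratic fit on genes with at least 1000 reads. By that annotation 11 members share exon bases with another listed gene, 10 of them on the opposite strand, where reads can be told apart only if strand was used. Reads of genes with processed copies, such as the actins, may be split by the counting: the listed pseudogenes *Actr3-ps* and *Actg-ps1* had 89 and 6, and 0 and 37 reads. The calculation was tested on simulated data. All 48 members could be named, with the 3 highest and 3 lowest of the further pathway genes with at least 1000 reads, of which 1 is not reported here. Members, classes and lists were chosen with earlier results of these data known. The ranges of depth, the subsets by complex and the blood-lineage subset were chosen after the data were seen. Alternatives were library totals, DESeq2 1.42.0 size factors, TMM without ribosomal, mitochondrial and 7SK or 7SL genes, other minimum reads, a prior of 1 read, a 1.5-fold threshold, trend removal and sums without the top member. Computation used Python 3.11.15, numpy 2.4.6, scipy 1.17.1, pandas 2.3.3 and matplotlib 3.10.9.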

Additional observations from a re-analysis of the deposited data

How the results depend on the processing

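No paired analysis was possible because each group has 1 library, and for the same reason no replicate could be left out. Under library totals the median log2 ratio was -0.042 over all members, -0.050 for Rac and its regulators, -0.17 for Arp2/3 and its activators, -0.0053 for actin and actin-binding proteins and -0.054 for the further pathway genes, and the summed reads of the 3 classes gave -0.057, -0.20 and -0.016. After removal of the trend with length and GC content the medians were 0.023 over all members (0.095 before), 0.041 for Arp2/3 and its activators and -0.0062 for actin and actin-binding proteins. The summed reads gave 0.039 without *Rhoa*, -0.044 without *Cyfip1* and 0.039 without *Actb*. With a minimum of 100 or of 1000 reads 0 members passed 2-fold in either direction. At 1.5-fold 4 members passed higher, where 30.6% of all genes did, and 2 lower, where 29.5% did. With at least 1000 reads these were 3 and 1 (14.6% and 14.5% of genes), and after trend removal 0 and 1 (12.6% and 13.6%), the latter another gene, by counts chosen after the data were seen. The sign of the ratio was the same under all 4 scalings tried for 39 of the 48 members, 18 above 0 and 21 below: it changed for 6 under library totals and for 4 after trend removal. DESeq2 size factors, TMM without ribosomal, mitochondrial and 7SK or 7SL genes and a prior of 1 read changed the sign of 0 members.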
